A study of Mus musculus with 2 samples.

Results

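The genes of the cytosolic ribosomal proteins were described in single cells of dysplastic mouse gastric organoids, 1 library with the solvent DMSO and 1 with the drug pyrvinium. Members were the protein-coding genes whose symbols begin with Rpl or Rps and a number, with Rplp0, Rplp1, Rplp2 and Rpsa, without the S6 kinase genes and symbols marked as pseudogenes. This gave 87 of 32227 genes, 52 named for the large and 35 for the small subunit. The rule reads symbols and gene type only, but it was set with earlier results of these data known. The name is broader than the ribosome. Rps19bp1 encodes a protein that binds ribosomal protein S19, Rpl7l1 a factor of large subunit assembly, and Rps23rg1 and Rps27rt are retrogenes of Rps23 and Rps27.

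The organoids were of the Meta4 line, grown from the stomach corpus. Both groups carried Mist1-CreERT2Tg/+ together with the allele LSL-K-ras(G12D)Tg/+. A tamoxifen-inducible Cre under the control of Mist1, a gene of the zymogenic chief cells, there releases an activated K-ras, and both groups were labelled as induced to dysplasia. They received DMSO or pyrvinium for 1 day, and the series asked which cells respond before the organoids change shape. The line stands for 1 culture, and its cells share their source. With 1 library per group no test across samples was possible, so "higher" and "lower" compare these 2 libraries. Intervals are 95% and cover counting error only.

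Barcodes with at least 9320 counts were kept as 1602 cells of the DMSO library, and those with at least 13100 counts as 854 cells of the pyrvinium library. They held 39980497 and 37046673 counts, and the libraries shared 0 cell barcodes. Levels are in CPM, a gene's count per 1000000 counts of the summed cells of its library. Because reads came from the 3′ ends of transcripts, counts were not divided by length, and levels of different genes were not ranked against each other. Mitochondrially encoded genes took 2.57% of the DMSO and 1.63% of the pyrvinium counts. All 7 epithelial markers were over 10 CPM in both libraries, led by Krt18, and summed to 8380 CPM in the DMSO library and to 5478 CPM under pyrvinium. The 4 matched markers of chief and parietal cells summed to 11.4 and 6.26 CPM. The 6 fibroblast markers summed to 1.33 and 0.783 CPM. The 6 immune markers, of which Lyz2 was at 0 counts in both libraries and only Cd68 over 10 CPM, summed to 21.5 and 29.4 CPM. The 3 endothelial markers, of which only Cdh5 was over 10 CPM, summed to 43.2 and 58.9 CPM. The epithelial sum was thus lower, and the small immune and endothelial sums were higher, in the library with the larger ribosomal protein share. The part of these in the results below was not tested.

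Each ribosome has a large subunit, which joins amino acids, and a small subunit, which reads the mRNA, and each subunit holds its proteins in single copies apart from the paired proteins of the stalk. Transcripts of ribosomal protein genes are among the most abundant in growing cells. In vertebrates they begin with a C followed by a run of pyrimidines, the 5′ terminal oligopyrimidine (TOP), through which the kinase complex mTORC1 and the RNA-binding protein LARP1 control their translation and stability together.

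Start sites are shown to let a reader see this shared element and the stretch that a parent gene shares with its retrogene. The sequences are from RefSeq on build GRCm38.p6, which is not the GRCm39 named for the counts. Each gives 10 bases before and 20 bases from the annotated start, 5′ to 3′ on the gene's strand, with capitals from the first C within 5 bases of the start that opens a pyrimidine run to the end of that run. Pyrimidines upstream of that C stay in lower case. Of the 87 members 67 had an entry.
Rps6, chr4:86857348-86857377, minus strand: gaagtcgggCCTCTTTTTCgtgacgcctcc
Rps15a, chr7:118116128-118116157, minus strand: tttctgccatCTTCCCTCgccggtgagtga
Rpl28, chr7:4792955-4792984, plus strand: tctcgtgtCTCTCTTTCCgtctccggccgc
Rplp2, chr7:141447641-141447670, plus strand: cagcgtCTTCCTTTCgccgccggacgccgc
Rpl35, chr2:39005112-39005141, minus strand: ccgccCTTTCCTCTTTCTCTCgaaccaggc
Rps27, chr3:90213629-90213658, minus strand: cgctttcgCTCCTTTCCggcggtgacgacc
Rps27rt, chr9:114982720-114982749, minus strand: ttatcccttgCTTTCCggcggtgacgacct
Rps27l, chr9:66946076-66946105, plus strand: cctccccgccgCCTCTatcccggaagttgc
A C followed by at least 4 bases that are each C or T, searched on the gene's strand only and within 5 bases of the start, was found in 31 of the 67 members (46.3%). It was found in 21.2% of the 27025 genes of the table. A match is a description of letters at the annotated start, which can lie some bases from the start that cells use. Rps27 and Rps27rt share an unbroken stretch of 19 bases in these windows.

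Ribosomal protein transcripts took a larger share of the counts with pyrvinium. The 87 genes summed to 25.3% of the DMSO counts (interval 25.30 to 25.33) and 29.9% of the pyrvinium counts (29.86 to 29.90), 1.18-fold higher. Both subunits were higher by nearly the same factor. Large subunit genes went from 14.6% to 17.2% (1.179-fold, interval 1.177 to 1.180) and small subunit genes from 10.7% to 12.6% (1.183-fold, 1.181 to 1.184). The ratio of large to small subunit counts was 1.369 with DMSO and 1.364 with pyrvinium. Barcodes with 100 to 500 counts, which stand for free RNA, showed a like difference, at 23.8% for DMSO and 27.9% for pyrvinium. The part of free RNA in the cells' values was not measured.

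Nearly all members differed in the same direction, and by little. Of the 87, 84 had at least 20 counts in the libraries together, and their median log2 ratio of CPM, pyrvinium over DMSO, was 0.25, a 1.19-fold difference. The median was -0.08 over all 15586 genes that reached this count. The whole counting interval lay above a ratio of 1 for 75 of the 84 members, against 21.7% of all genes and 47.6% of the 225 other genes with at least 500 CPM in both libraries, whose depth is more like that of the members. It lay below 1 for 6 members, against 33.5% and 44.4%. At the limit of 1.2-fold, 40 members were higher and 1 was lower, against 16.5% higher and 28% lower of all genes tested and 20.9% and 24.4% of the abundant genes. The members' median is next to this limit, so the count of 40 moves with small changes of scale. Scaled by the median of ratios instead, 55 members were higher and 1 lower, against 21.4% and 22.8% of all genes. At 1.5-fold 0 members were higher and 0 lower, where 7.57% and 15.5% of all genes and 6.67% and 12.9% of the abundant genes were. The quartiles of the members' log2 ratios were 0.14 and 0.31, a range of 0.17 that compares with 0.68 for all genes and 0.45 for the abundant genes.

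**Figure D1:**
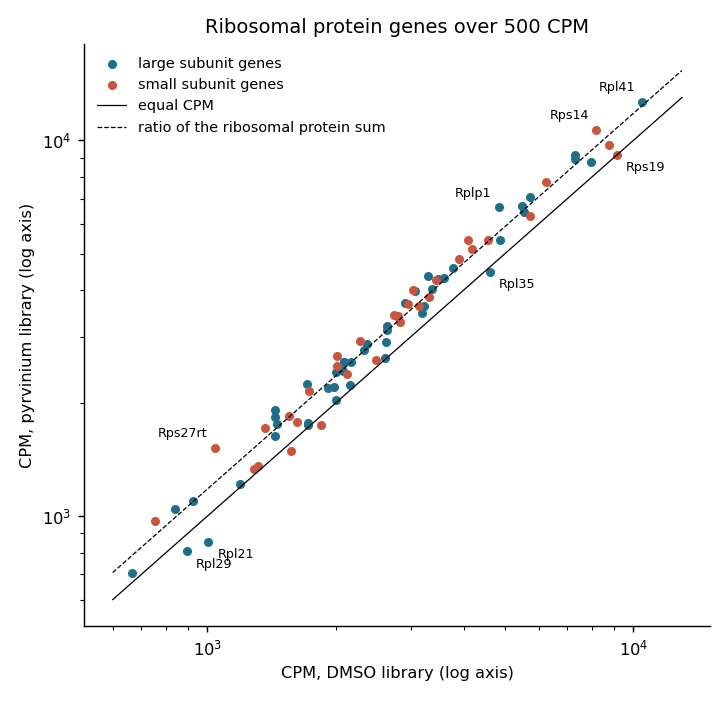
CPM of each ribosomal protein gene over 500 CPM in the DMSO library (x, log axis) and the pyrvinium library (y, log axis), with large subunit genes in blue and small subunit genes in red. Most points lie along the dashed line of the 1.18-fold ratio of the sum, while Rpl21, Rpl29 and Rpl35 lie below the line of equal CPM (Rpl35 lies above it when scaled by the median of ratios).

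**Figure D2:**
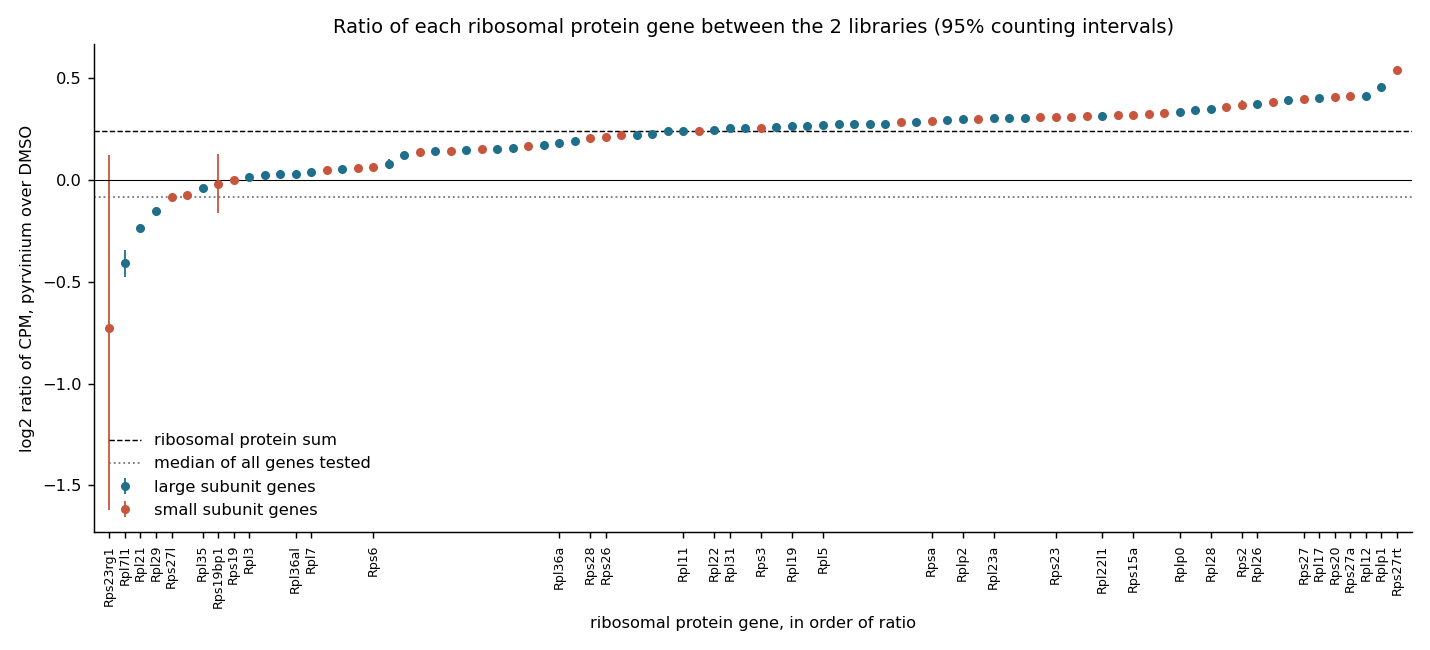
Log2 ratio of CPM, pyrvinium over DMSO, of the 84 ribosomal protein genes with at least 20 counts, in order of ratio, with 95% counting intervals as bars and names for the genes described in the text. Genes of both subunits are mixed along the order, and most intervals are narrower than the points except for Rps23rg1, Rps19bp1 and Rpl7l1.

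The stalk is a flexible arm of the large subunit that recruits the elongation factors. Transcripts for its proteins summed to a larger difference than the members as a whole. Rplp0, the stalk's base protein, went from 7287 CPM in the DMSO cells to 9167 CPM in those with pyrvinium (log2 ratio 0.33, interval 0.32 to 0.34). Rplp1, one of the 2 acidic proteins carried on it, was at 4833 and 6634 CPM, a log2 ratio of 0.46 that was the second highest of the 84. Its partner Rplp2 was at 2093 and 2574 CPM, with a log2 ratio of 0.30. Rpl12, which binds the rRNA at the foot of the stalk, was at 1439 and 1916 CPM (0.41). All 4 were at least 1.2-fold higher with pyrvinium, against 40 of the 84 members and 16.5% of all genes tested, and their sum went from 1.57% to 2.03% of all counts, 1.30-fold higher.

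Rpl5 and Rpl11 form a particle with 5S rRNA and, when free of the ribosome, bind Mdm2, the ubiquitin ligase of p53. Rpl5 was counted at 1456 CPM (DMSO) and 1755 CPM (pyrvinium). Rpl11 was at 2640 and 3121 CPM. Their log2 ratios of 0.27 and 0.24 lay at the middle of the members.

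Around the exit of the peptide tunnel, where nascent chains leave the large subunit, the members were spread from the top to the lower end of the order. Rpl17 was at 3295 and 4352 CPM (log2 ratio 0.40) and Rpl26 at 3065 and 3972 CPM (0.37). Rpl23a, which offers a docking site for the signal recognition particle, was at 3473 and 4281 CPM (0.30), Rpl19 had a log2 ratio of 0.27 and Rpl31 one of 0.25. Rpl35 stood at 4603 CPM for DMSO and 4477 CPM for pyrvinium, a log2 ratio of -0.04 (interval -0.05 to -0.03). It was among the 6 members whose interval lay below a ratio of 1 in CPM.

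Transcripts for the proteins of the small subunit that line the path of the mRNA were also higher. At the entry, Rps3, which touches the incoming mRNA, was at 4561 and 5442 CPM (log2 ratio 0.25) and Rps2 at 754 and 972 CPM (0.37). At the exit side, Rpsa, also known as a laminin receptor, was at 2794 and 3415 CPM (0.29). Rps26 and Rps28 were both at 0.21, just under the ratio of all members. Rps6, the substrate that gave S6 kinase its name, was nearly level, at 2494 and 2610 CPM, a log2 ratio of only 0.07 (interval 0.05 to 0.08).

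To set aside the common difference, each member was also expressed relative to the sum of all ribosomal protein counts. On this scale 68 of the 84 members lay within 0.2 (log2) of the sum. The counting interval was above it for 44 members and below it for 36, so the depth resolved departures that were small in size. Rps27rt was 0.30 above the sum, from 1043 CPM with DMSO to 1516 CPM with pyrvinium, a 1.45-fold difference in CPM that was the highest among the members. After Rps27rt and Rplp1, the members farthest above were Rpl12, Rps27a, Rps20 and Rpl17, 0.16 to 0.17 above the sum. Rps27a, which encodes a ribosomal protein fused to ubiquitin, was at 4087 and 5439 CPM. Rps20, a protein of the small subunit's head, was at 2015 and 2675 CPM.

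Among members with at least 20 CPM in a library, the 6 farthest below the sum lay 0.28 to 0.65 from it, those farthest above 0.16 to 0.30. Rpl7l1 had a relative log2 ratio of -0.65, from 117 CPM with DMSO to 87.8 CPM with pyrvinium. It was the only member at least 1.2-fold lower in CPM with an interval that excluded a ratio of 1. Rpl21 was at 1006 and 854 CPM, a relative log2 ratio of -0.48. Rpl29, which is not needed for viability in mice, was at 897 and 807 CPM (-0.39 relative to the sum). Rps27l was at 1575 and 1488 CPM (-0.32), and Rpl35 was at -0.28. These 5 were lower with pyrvinium in CPM as well, beyond counting error. This rests on the scaling for some of them. By the median of ratios, which moves each log2 ratio up by 0.09, Rpl35 was higher at 0.05 (interval 0.04 to 0.06) and Rps27l was level at 0.0038 (-0.01 to 0.02), while Rpl7l1, Rpl21 and Rpl29 stayed lower. Rps19, one of the genes mutated in Diamond-Blackfan anaemia, was level at 9146 and 9143 CPM, with a log2 ratio whose interval spans 0 (-0.01 to 0.01), and was at 0.09 by the median of ratios.

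Paralogs were set beside their parent genes, with no test of the differences. Rps27 went from 3044 to 4011 CPM (log2 ratio 0.40, interval 0.39 to 0.41), whereas Rps27l, a paralog known as a p53 target, had a log2 ratio of -0.08 (-0.10 to -0.07). Rpl7 was nearly level at 1725 and 1771 CPM (0.04), and its relative Rpl7l1 was at -0.41 (-0.48 to -0.35). Rpl36a had a log2 ratio of 0.18 and the autosomal retrocopy Rpl36al one of 0.03. Rpl22 and Rpl22l1, which can take each other's place in the ribosome, were alike in direction, at 925 and 1097 CPM (0.25) and at 841 and 1045 CPM (0.31). Rps19bp1 was at 20.03 and 19.79 CPM, with a log2 ratio of -0.02 (interval -0.16 to 0.13). Rps23rg1 had 34 and 19 counts in all and an interval of -1.62 to 0.12. Relative to the ribosomal protein sum both intervals lay below 0, at -0.40 to -0.11 and -1.86 to -0.12. The tissue-restricted paralogs Rpl3l, Rpl39l and Rpl10l had 5, 1 and 0 counts with DMSO and 0, 0 and 2 with pyrvinium. With 3 counts taken as the one-sided limit that a count of 0 allows, this is 0.0750 CPM in the DMSO and 0.0810 CPM in the pyrvinium sum.

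Ribosomal protein genes have many processed copies in the genome, so reads can fit several genes, and how these were counted is not given in the sources used here. The last 300 bases of 1 protein-coding transcript per gene were compared, in pieces of 31 bases, with the transcripts of all other genes of GENCODE M21, for 84 of the 87 members. In the median member 68.1% of the pieces also occurred in another gene. For Rps27 the share was 100% and for Rps27rt 90.7%. Between the 2 genes alone, 100% of the pieces of Rps27 occurred in Rps27rt and 89.3% of those of Rps27rt in Rps27, so their counts cannot be told apart with certainty. In the 1 transcript compared, the share was 0% for Rpl21 and 30.7% for Rps27l. Pieces from other transcripts of these genes were not compared. The 49 tested members with at least 50% of pieces shared and the 32 with less had median log2 ratios of 0.25 and 0.25, and the 19 with under 10% shared had 0.24. The 8 listed genes that carry a pseudogene symbol, which the members leave out, held 2.71% (DMSO) and 2.93% (pyrvinium) as many counts as the members. For some parent genes the part left out was large. Rpl10-ps3 was at 1687.5 and 1877 CPM beside 2005 and 2042 CPM for Rpl10. Rps18-ps5 was at 3384 and 4370 CPM beside 8755 and 9717 CPM for Rps18. Rplp2-ps1 was at 628 and 905 CPM beside 2093 and 2574 CPM for Rplp2. Rpl36-ps4 had only 7 and 2 counts.

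Among members with an entry in the start site table, the 31 with the pyrimidine run had a median log2 ratio of 0.28 (quartiles 0.15 and 0.32) and the 33 tested members without it one of 0.22 (0.12 and 0.27). The quartile ranges overlapped, and no test was run on this split.

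Cell by cell, the share of ribosomal protein counts was spread widely in both libraries. Its median was 25.3% in DMSO cells (quartiles 22.6% and 27.8%, extremes 11.5% and 42.9%) and 30.1% in pyrvinium cells (26.6% and 32.8%, extremes 15.96% and 45.7%). The 2 distributions overlapped, but 81.1% of pyrvinium cells were above the DMSO median and 10.7% of DMSO cells above the pyrvinium median. Large and small subunit shares varied together across cells, with Pearson's r of 0.951 over 1602 DMSO cells and 0.954 over 854 pyrvinium cells. Both shares have the cell's total count as denominator, and r is given as a description. The ratio of large to small subunit counts had a median of 1.37 per cell in both libraries. In each library 81 members were counted in at least 95% of cells.

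**Figure D3:**
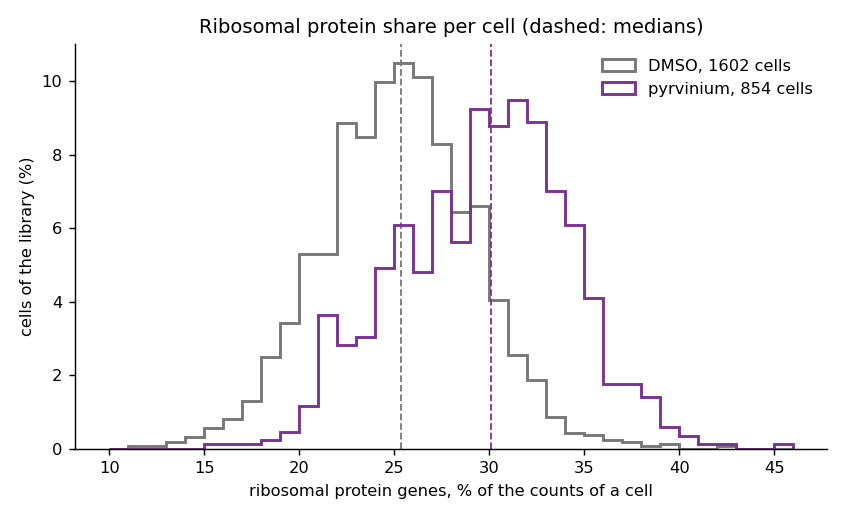
Share of ribosomal protein genes in the counts of a cell (x, %) against the share of cells of the library (y, %), for 1602 DMSO cells in grey and 854 pyrvinium cells in purple. The medians, drawn as dashed lines, are 25.3% and 30.1%, and the distributions overlap.

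The pyrvinium cells were deeper, with a median of 31517 counts against 18593, so the share was set out by depth. In cells with 13100 to 20000 counts the median share was 25.2% in 469 DMSO and 29.9% in 225 pyrvinium cells. With 20000 to 30000 counts it was 24.7% and 30.1%, with 30000 to 50000 counts 25.002% and 30.1%, and with 50000 or more 26.4% and 30.4%. Within each library these medians lay closer together than the libraries did, and the pyrvinium median was above the DMSO median in each range. Counts of ribosomal protein genes averaged 6318 per DMSO cell and 12963 per pyrvinium cell, and all other counts 18639 and 30417. These averages follow from the thresholds on counts as well as from the cells.

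The share was then set beside other programmes in the same cells. Each cell's counts outside ribosomal protein and mitochondrial genes were thinned to 3000, and cells of a library were parted in 3 ranges by the counts of a list. These ranges are not cell types, and counts of free RNA enter them. For replication genes of S phase, which were lower with pyrvinium (19 of 20 at least 1.5-fold, against 15.5% of all genes), the median ribosomal protein share in DMSO cells was 25.8% in the low range (0 to 2 counts, 777 cells) and 24.6% in the high range (5 to 22 counts, 520 cells). In pyrvinium cells it was 30.5% (0 to 1 counts, 474 cells) and 29.2% (3 to 16 counts, 213 cells). For mitotic genes the DMSO medians were 25.3% and 25.3% and the pyrvinium medians 30.0% and 30.5%. The order of the libraries was thus the same in each range of the cell cycle lists.

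For the integrated stress response, the programme of the transcription factor ATF4, the median share went with the list in both libraries. It was 24.7% in DMSO cells with 0 to 4 counts of the list and 26.2% in those with 8 to 132 counts. It was 28.9% in pyrvinium cells with 1 to 14 counts and 30.9% in those with 23 to 93 counts. For hypoxia genes it was 24.7% in the low and 26.1% in the high range of DMSO cells, and 30.2% and 30.4% in pyrvinium cells, which held few counts of this list (4 to 15 in the high range). These steps are small beside the quartiles within each range, which lay 4.33 to 7.18 percentage points apart. The lowest of the 12 pyrvinium medians, 28.9%, was above the highest of the 12 DMSO medians, 26.2%. Each list parts the same cells of a library anew, so these medians are not separate comparisons.

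**Figure D4:**
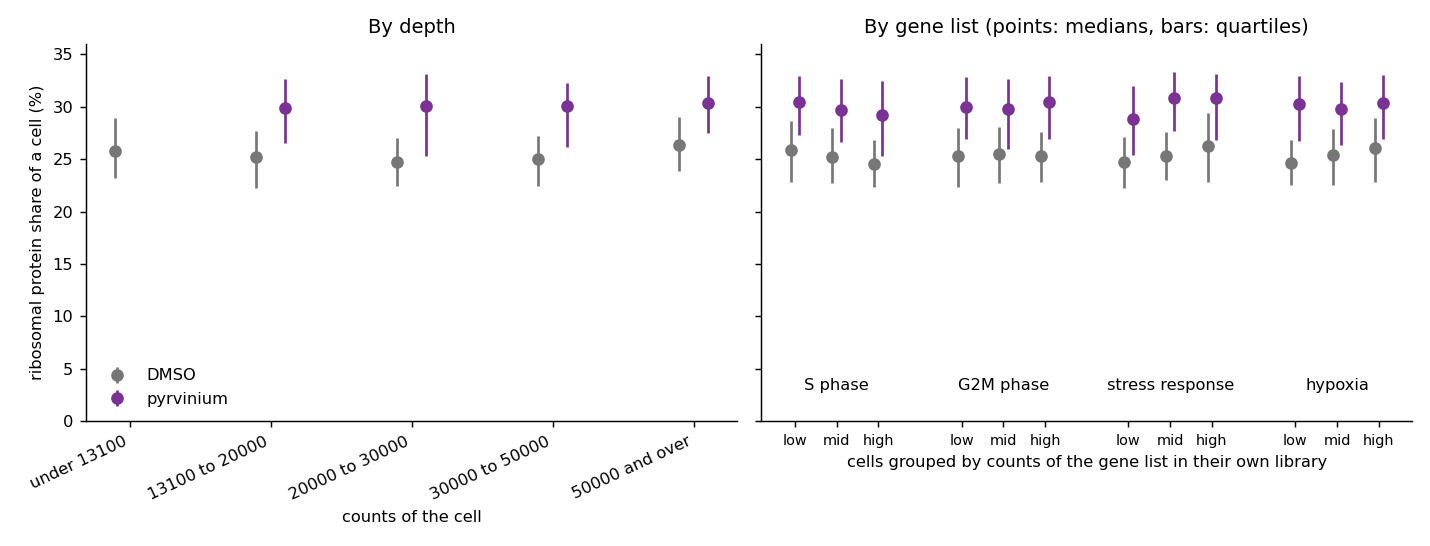
Median share of ribosomal protein genes per cell (y, %; bars are quartiles) by the cell's counts on the left and by ranges of S phase, G2M, integrated stress response and hypoxia list counts on the right, with DMSO in grey and pyrvinium in purple. In each range that holds cells of both libraries the pyrvinium median lies above the DMSO median.

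Genes outside the membership that share the role or the start element were examined next. Fau, which encodes a ribosomal protein as a fusion to a ubiquitin-like sequence, was at 2014 and 2213 CPM (log2 ratio 0.14), higher but under the 1.2-fold limit. Of 18 other transcripts known to carry a TOP, 6 were at least 1.2-fold higher and 0 lower, against 16.5% and 28% of all genes and 20.9% and 24.4% of the abundant genes. Their median log2 ratio was 0.19. Tpt1, a growth-associated protein, was at 1563 and 2098 CPM (0.42). The snoRNA host transcript Gas5 was at 1612 and 2140 CPM (0.41), the initiation factor subunit gene Eif3f at 185 and 236 CPM (0.36) and the elongation factor gene Eef1b2 at 809 and 1029 CPM (0.35). Hnrnpa1 had the lowest ratio of this list, -0.26. At 1.5-fold, 0 of the 18 were higher and 0 lower, against 7.57% and 15.5% of all genes.

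Of 18 genes of mTORC1 and TOP control, 4 were at least 1.2-fold higher and 4 lower, which is near the 16.5% and 28% of all genes. Their median was -0.11. Eif4ebp1, the translation repressor that mTORC1 inactivates, went from 276 to 517 CPM (log2 ratio 0.91). Ddit4, a stress-induced brake on mTORC1, was at 61.4 and 99.6 CPM (0.70). The S6 kinase genes were lower, Rps6kb1 at 28.4 and 16.4 CPM (-0.79) and Rps6kb2 at 10.4 and 6.96 CPM (-0.57). Larp1 had a log2 ratio of -0.23 and Mtor one of 0.30. Activity of mTORC1 was not measured.

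The list of genes that escort ribosomal proteins to assembly held 13 measured genes, of which 7 were lower and 1 was higher at the 1.2-fold limit, against 28% and 16.5% of all genes. At 1.5-fold 4 were lower and 0 higher, against 15.5% and 7.57%. Their median log2 ratio was -0.27, below the -0.08 of all genes. Grwd1, a chaperone of ribosomal protein L3, was at 37.1 and 10.6 CPM (-1.80). Rpl3 itself was at 2617 and 2641 CPM, a log2 ratio of 0.01, and at -0.23 relative to the ribosomal protein sum. Tsr2, the escort of Rps26, was at 13.7 and 6.75 CPM (-1.02), and Heatr3, which brings Rpl5 and Rpl11 to the nucleus, at 10.1 and 6.56 CPM (-0.62). Aar2 was at 14.8 and 7.07 CPM (-1.06), although its best-known role is in assembly of the spliceosome. The importin gene Ipo7 was the 1 higher member (0.56).

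Of 12 genes that sense or clear stalled ribosomes, 2 were at least 1.2-fold higher and 2 lower, against 16.5% and 28% of all genes, with a median of -0.04. Gtpbp2, a rescue factor, was at 14.1 and 22.7 CPM (log2 ratio 0.69) and the helicase gene Ascc3, which splits collided ribosomes, at 36.3 and 52.5 CPM (0.53). Gcn1, an activator of the stress kinase GCN2, was at 0.22 and Map3k20, the kinase of the ribotoxic stress response, at -0.21. In the plot by list most ribosomal protein genes lie close together (quartiles 0.14 and 0.31), though their extremes are -0.73 and 0.54. The spread of the other lists was not computed. Many of their genes have fewer counts than most members, so their counting error is larger.

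**Figure D5:**
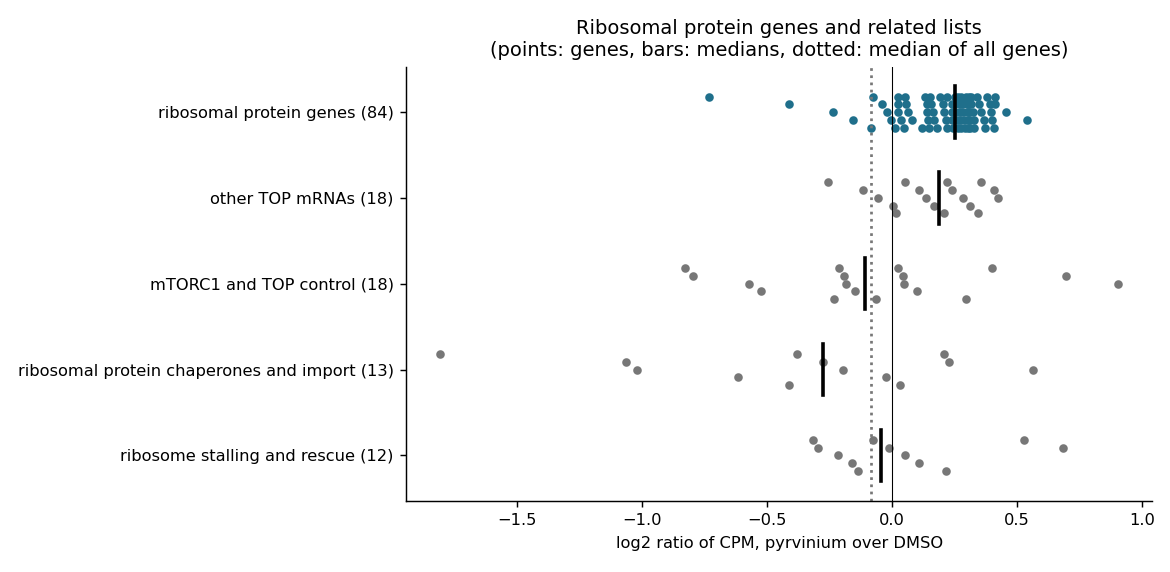
Log2 ratio of CPM, pyrvinium over DMSO (x), of the 84 ribosomal protein genes in blue and of the genes of 4 related lists in grey, 1 point per gene with the median as a bar and the median of all genes as a dotted line. The medians are 0.25 for ribosomal protein genes, 0.19 for other TOP transcripts, -0.11 for mTORC1 and TOP control, -0.27 for chaperones and import and -0.04 for stalling and rescue.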

How the data were processed

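The deposited matrices hold raw integer counts for each gene in each barcode. Per the labels' protocols the libraries were made with the PIPseq T2 kit, and per the submitters' processing notes Partek was used with the build GRCm39. Aligner, counting and barcode filter: not given in the sources used here. Depth was 64212118 counts over 331629 barcodes (DMSO) and 64412821 over 353485 (pyrvinium). A cell had at least 1/10 of the 99th percentile of its library's top 2000 barcodes. No doublet caller was run.

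Cell counts were summed per library. Levels have exact Poisson and ratios exact conditional binomial 95% intervals, computed with scipy 1.17.1 and checked on simulated counts. A gene counted as higher or lower past 1.2-fold or 1.5-fold when its interval excluded a ratio of 1. Genes with 0 counts took a floor of 3. The members and lists were chosen with earlier results of these data known. Named were the 6 members highest and the 6 lowest relative to the ribosomal protein sum with at least 20 CPM, the paralogs, the position groups, Rps6, Fau and up to 4 genes of each related list with at least 10 CPM; the parent genes of paralogs, Rpl3, Rps14, Rps19, Hnrnpa1, Larp1, Mtor, Ipo7, Rps23rg1 and the start sites printed were chosen after their values were seen. A few genes taken by these rules are left out of the text. Alternatives changed the threshold, range of counts, scaling, weighting of cells, doublets, free RNA, pseudogene counts and the count minimum.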

Additional observations from a re-analysis of the deposited data

How the results depend on the processing

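The direction of the sums and of the median member held under the 10 alternatives, of which the count minimum cannot move the sums. Scaling cannot move a ratio relative to the ribosomal protein sum, and the members named for such ratios were chosen as extremes, so their direction is not counted here. In the order of the sum of all members, the large and the small subunit, the log2 ratio went from 0.24, 0.24 and 0.24 to 0.23, 0.23 and 0.23 at a threshold of 1000 counts, at 3000 counts and as the mean over cells (0.23, 0.24 and 0.23). It was 0.25, 0.25 and 0.24 when both libraries were limited to one span of counts per cell, 0.24, 0.24 and 0.25 without the 5% of cells with the highest counts and 0.24, 0.24 and 0.25 with pseudogene counts added. Scaling mattered most: without ribosomal protein and mitochondrial genes in the total the values were 0.31, 0.31 and 0.32, and by the median of ratios 0.33, 0.32 and 0.33, with a median member of 0.34 instead of 0.25. The members at least 1.2-fold higher numbered 54 and 55 in these settings and 37 to 43 in the others, with 1 lower in each. The members whose interval lay below a ratio of 1 numbered 3 under both of these scalings instead of 6. Over all genes, higher and lower shares at 1.2-fold went from 16.5% and 28.0% to 21.4% and 22.8% by the median of ratios. No paired analysis was possible because each group has 1 library, and for the same reason no replicate could be left out. Members lie over 500 CPM in 81 of 84 cases, and counting intervals are widest for Rps19bp1, Rps23rg1 and Rpl7l1.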

Other observations

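With each cell thinned to 5000 counts, the variance over cells divided by the mean (1 for pure counting noise) was 1.66 in the median of 81 members in DMSO cells and 1.73 in pyrvinium cells. For the other genes with a mean of at least 2 counts, 319 and 307 in number, it was 1.599 and 1.399 at lower means (median 3.56 and 3.61 counts against 13.0 and 14.3 for the members). Rps14 had the highest value among members in both libraries, 4.94 and 5.64, with a median of 40 counts in DMSO cells (10th to 90th percentile 24 to 61) and 50 in pyrvinium cells.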
